A study of Mus musculus with 11 samples.

Results

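The 42 genes described here act in G2 and mitosis, and were listed by their known roles: cyclins and kinases of mitotic entry, the spindle checkpoint, partners of the anaphase-promoting complex, the chromosomal passenger complex, kinetochore proteins, spindle motors, and proteins of the midzone and cytokinesis. They were picked by gene symbol out of 36529 genes listed for 11 RNA-seq libraries of BV2 cells, and all 42 had enough counts to be tested in every comparison. BV2 is an immortalized and dividing line of mouse microglia, labeled with the strain C57BL/6. The ApoE4 group (3 libraries) was given the amino-terminal fragment of human apolipoprotein E4 with residues 1–151, called nApoE4, at 25 µg/ml for 5 h, and the ControlA group (3 libraries) consists of its untreated controls. The ApoE3 group (2 libraries) was given nApoE3, the same residues of apolipoprotein E3, at the same concentration for the same time, and the ControlB group (3 libraries) consists of its untreated controls. The fragments carry a histidine tag and differ by 1 residue, a cysteine in nApoE3 and an arginine in nApoE4. The labels name a PBS vehicle where the study's methods name conditioned media, so what the controls received is not settled here. The study asked which genes change their expression when these fragments are added to microglia.

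Mitosis is driven by Cdk1 bound to cyclin B, which the phosphatases of the Cdc25 family switch on and which the anaphase-promoting complex ends by marking cyclin B and securin for destruction. Until every kinetochore holds spindle microtubules, the checkpoint proteins keep the activator Cdc20 from working. Transcripts of these genes are low after division and accumulate through S phase and G2, when the MuvB complex with B-Myb and FoxM1 activates promoters that carry a CHR element (TTTGAA or a close variant) and CCAAT boxes bound by NF-Y. In cells outside the cycle, or with active p53 and p21, the DREAM complex holds the same promoters silent. A bulk level of such a gene thus mixes the share of cells in G2 and mitosis with the RNA per such cell, and the counts cannot tell these apart.

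The promoters of 4 genes are shown as examples of different responses. Cdc25b and Cenpa fell with both fragments, Ube2c rose with nApoE3, and Cdk1 fell with nApoE4 and rose with nApoE3. The windows were read from RefSeq on GRCm38.p6, from 120 bases before to 25 bases after the annotated start of transcription, and are written 5′ to 3′ on the strand of the gene. Capitals mark TTTGAA or TTCGAA and also CCAAT on either strand, so that on the reverse strand they read TTCAAA and ATTGG. Cdc25b lies at chr2:131186828-131186972 (plus strand), Cenpa at chr5:30666766-30666910 (plus strand), Ube2c at chr2:164769809-164769953 (plus strand) and Cdk1 at chr10:69352888-69353032 (minus strand).
Cdc25b: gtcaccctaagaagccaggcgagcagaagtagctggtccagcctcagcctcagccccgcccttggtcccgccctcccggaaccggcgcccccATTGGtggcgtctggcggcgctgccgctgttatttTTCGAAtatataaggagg
Cenpa: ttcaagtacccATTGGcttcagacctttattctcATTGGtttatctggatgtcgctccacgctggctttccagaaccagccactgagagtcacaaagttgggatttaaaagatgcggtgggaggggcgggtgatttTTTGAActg
Ube2c: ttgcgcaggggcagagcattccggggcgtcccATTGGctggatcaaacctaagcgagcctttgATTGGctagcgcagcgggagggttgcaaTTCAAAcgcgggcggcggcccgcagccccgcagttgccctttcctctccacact
Cdk1: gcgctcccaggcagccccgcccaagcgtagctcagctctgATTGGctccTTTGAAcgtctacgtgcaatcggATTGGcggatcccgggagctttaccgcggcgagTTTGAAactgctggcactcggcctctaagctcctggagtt

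These letters were common in the promoters of the whole list. Of the 42 genes, 36 had a RefSeq window of 250 bases before to 50 bases after the start. TTTGAA, searched on both strands, was found in 26 of these 36 genes (72.2%), against 20.2% of 27025 genes with a window. TTCGAA, which reads the same on both strands, was found in 4 (11.1%, against 1.80% of all genes), and either of them in 28 (77.8%, against 21.7%). CCAAT, on both strands, was found in 27 (75%, against 41.1%). CCAAT together with TTTGAA or TTCGAA was found in 24 (66.7%, against 9.65%). Among 33 S phase genes with a window, CCAAT was found in 66.7% and TTTGAA or TTCGAA in 18.2%. The matches of TTTGAA or TTCGAA in the promoters of the mitosis genes lay around the start, with a median first base 2 bases after it. Of the 42 matches, 71.4% began within 60 bases of the start, against 28.0% of the 7260 matches in all windows. Matches were counted per window, so sites of Ect2, Bub3 and Prc1, with 2 windows each, entered more than once. The 28 genes with such a match had a median log2 fold change of −0.23 with nApoE4 and −0.09 with nApoE3, and the 8 without had −0.03 and −0.13, with ranges that overlapped in both cases. A match of letters is a description of the window and says nothing about binding in these cells.

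Depth was 39732710 to 44162511 counts in the ControlA and ApoE4 libraries and 55809688 to 69768666 in the ControlB and ApoE3 libraries, so the experiment, the depth and the fragment cannot be told apart. Levels are given as CPM, the counts of a gene relative to the library total, after TMM scaling. Reads counted on the 42 genes made up 0.473 to 0.765% of all counts. Replicates varied with a biological coefficient of 0.0838 in the nApoE4 experiment and 0.0262 in the nApoE3 experiment, so that smaller changes could be called with nApoE3. Of 13 markers of microglia and macrophages, P2ry12 had no counts and Aif1 and Cx3cr1 stayed under 1 CPM, while Csf1r, Cd68 and Spi1 were high. The 13 summed to 3702 to 4099 CPM in ControlA, 3801 to 3892 with nApoE4, 2703 to 2817 in ControlB and 3233 to 3252 with nApoE3. Summed over 20 markers of other cell types, of which Mog and Cldn5 had no counts, the level was 16.1 to 19.6 CPM in ControlA, 23.3 to 25.6 with nApoE4, 27.8 to 28.6 in ControlB and 31.0 to 33.1 with nApoE3. These sums move with the groups, and their part in the results was not tested. The ControlA libraries differed from each other with exon length. Each set against the mean of the other 2, replicates 1, 2 and 3 had Spearman correlations of 0.30, −0.57 and 0.56 with length across 10280 genes, and of 0.21, −0.37 and 0.47 across 39 of the mitosis genes. Mki67, the longest but Cenpf of the list by exon length at 10.1 kb, was at 558 CPM in ControlA replicate 2 and at 792 and 798 CPM in the other ControlA libraries. Counts of calls that rest on ControlA are given without replicate 2 too, as are the nApoE4 values of Mki67, Cenpe and Top2a.

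Nek2, Kif11 and Prc1 were at the bottom of the list in every library. Nek2, a centrosome kinase, had 7 to 29 counts per library, Kif11, the motor that pushes the spindle poles apart, had 25 to 73, and Prc1, which bundles midzone microtubules, had 8 to 33. In CPM per kb of exon, they lay between 0.0340 and 0.173 in group means, while the other 39 genes lay between 3.79 (Cdc25c with nApoE4) and 103 (Tpx2 with nApoE3). Most of the Prc1 span (99.3%) is shared with Rccd1, and reads that matched more than 1 gene or more than 1 place were not counted, so the low level of Prc1 cannot be read as low transcription. Nek2 (6.02% of its span) and Kif11 (2.54%) overlap pseudogenes, and whether reads with more than 1 place lowered their counts was not tested. Such overlaps are not particular to them, since Cdc25c (3.48%) and Incenp (2.55%) also overlap pseudogenes and had at least 732 and 7037 counts per library. Nek2, Kif11 and Prc1 did not pass the test with either fragment, and they are left out of the plots.

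With nApoE4, 3 of the 42 genes were higher and 23 lower than in ControlA at an adjusted p under 0.05, while 28.6% of the 14240 genes tested were higher and 28.6% lower. With nApoE3, 12 were higher and 20 lower than in ControlB, while 33.1% of 14817 genes were higher and 34.6% lower. The median log2 fold change of the list was −0.20 with nApoE4 and −0.11 with nApoE3, against medians of 0.00 over all genes tested in both experiments. No gene of the list changed by more than 2-fold with either fragment. With nApoE4, the treated and untreated libraries did not overlap for 26 of the 42 genes (63.6% of all genes), and with nApoE3 for 37 (77.6% of all genes). By sum over the list, the 3 ControlA libraries held 5600, 5109 and 5428 CPM and the 3 ApoE4 libraries 5026, 4703 and 4795 CPM. The 3 ControlB libraries held 7520, 7550 and 7520 CPM, and the 2 ApoE3 libraries 7228 and 7265 CPM. The treated libraries were below their own controls in both experiments, and the list was at a higher level in the ControlB experiment throughout.

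The calls with nApoE4 were of unequal firmness. Of the 23 falls, 14 kept the call in each of the 14 other fits tried, and none of the 3 rises did. Without ApoE4 replicate 3, 15 genes were lower, and the number higher was 1 without ControlA replicate 1 or ApoE4 replicate 1 and 0 without ApoE4 replicate 2 or 3. Without ControlA replicate 2, the counts were again 3 higher and 23 lower. Scaled by library totals alone, without TMM, none was higher and 26 were lower, since the median of all genes then moved to −0.09. With nApoE3, 6 of the 12 rises and 16 of the 20 falls kept the call in each of the 13 other fits. Library totals alone gave 6 higher and 28 lower with nApoE3, with the median of all genes at −0.13. Relative to that median, the list stayed at −0.20 with nApoE4 and −0.11 with nApoE3. Among the nApoE3 rises that kept their call with library totals, 4 shrank by more than 1.5 times, Cdk1 to 0.08, Bub3 to 0.09, Top2a to 0.15 and Ccnb1 to 0.17.

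**Figure D1:**
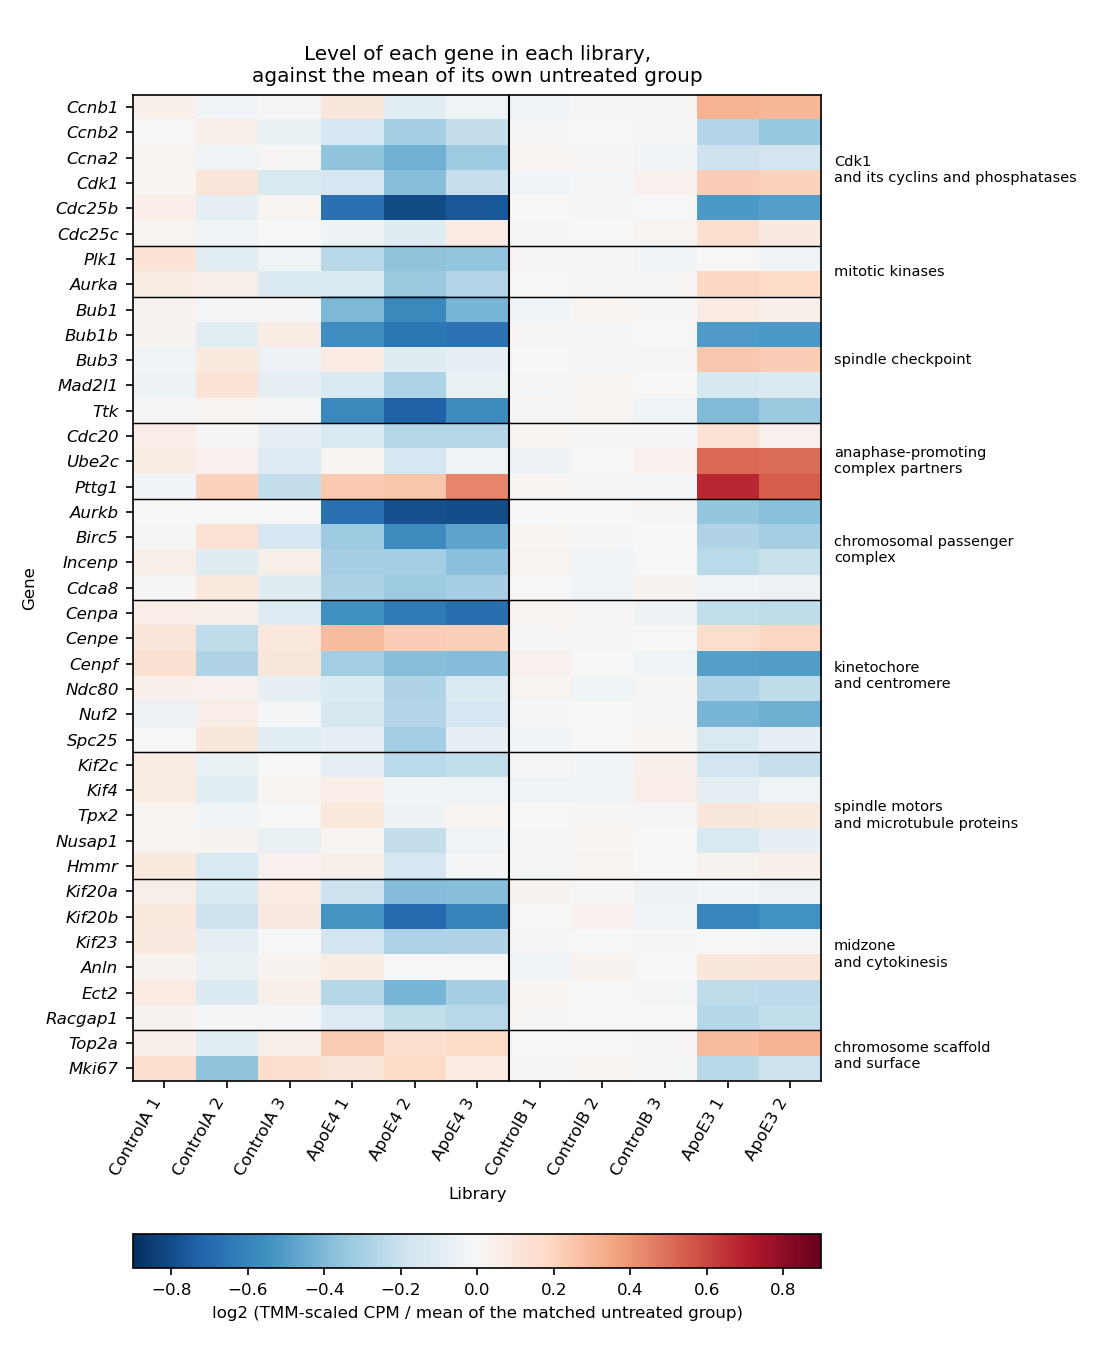
Each row is a gene, grouped by role, and each column a library. The color gives the log2 ratio of the TMM-scaled CPM to the mean of the matched untreated group, ControlA for the first 6 columns and ControlB for the last 5. Aurkb, Cdc25b, Bub1b, Ttk and Kif20b are below their controls in all 5 treated libraries, while Ube2c and Ccnb1 stand above them in both ApoE3 libraries.

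Among Cdk1 and its regulators, nApoE4 gave 4 falls among 6 genes, and nApoE3 gave 3 rises and 3 falls. Cdc25b, the phosphatase that starts Cdk1 activation at the centrosome, had the largest fall in the group with both fragments. It was at 95.6, 86.1 and 93.3 CPM in ControlA and 57.5, 52.6 and 54.0 CPM with nApoE4 (log2 fold change −0.74 ± 0.0647 SE, adjusted p = 7.8e-06). In the other experiment it was at 102, 101 and 102 CPM in ControlB and 71.0 and 72.1 CPM with nApoE3 (log2 fold change −0.52 ± 0.0271 SE, adjusted p = 4.5e-09). The treated libraries lay below every control in both experiments. Ccna2, cyclin A2, of whose span 10.6% overlaps Exosc9, also fell with both, by 0.37 and 0.18 on the log2 scale, as did Ccnb2, cyclin B2, by 0.22 and 0.31. Ccnb1, cyclin B1, behaved unlike Ccnb2 with nApoE3. It was at 217, 222 and 222 CPM in ControlB and 274 and 272 CPM with nApoE3, a rise of 0.30 ± 0.0222 SE on the log2 scale (adjusted p = 1.18e-07). With nApoE4, Ccnb1 was at 239, 208 and 219 CPM against 230.4, 220.0 and 220.3 CPM in ControlA, and the groups overlapped. Cdc25c, a related phosphatase, was the lowest of the 6 genes at 17.6 to 22.3 CPM, and its rise of 0.11 with nApoE3 was lost without ControlB replicate 1 (0.10), ControlB replicate 2 (0.10) or ApoE3 replicate 1 (0.07) and was −0.03 with library totals.

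Cdk1, the kinase of mitotic entry (chromosome 10, 69335146 to 69352912), moved in opposite directions. It was at 174, 185 and 155 CPM in ControlA and 154, 131 and 148 CPM with nApoE4 (log2 fold change −0.24 ± 0.0829 SE, adjusted p = 0.0322). In ControlB it was at 105, 105 and 109 CPM, and with nApoE3 at 124 and 123 CPM (log2 fold change 0.21 ± 0.0284 SE, adjusted p = 3.24e-05). The highest ApoE4 library lay just below the lowest ControlA library, whereas both ApoE3 libraries stood clear of ControlB. With library totals, the rise with nApoE3 was 0.08 and still called. The fall with nApoE4 lost the call without ControlA replicate 1 (−0.23), ApoE4 replicate 2 (−0.18) or ApoE4 replicate 3 (−0.26). The 2 responses differed by −0.46 ± 0.101 SE in log2 (nApoE4 minus nApoE3, adjusted p = 0.00429), and this difference kept the call in all 18 other fits.

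Of the mitotic kinases at the centrosome, Aurka, which builds the spindle poles, also moved in opposite directions. It was at 136, 134 and 119 CPM in ControlA and 119, 103 and 108 CPM with nApoE4, so that 1 treated library was level with the lowest control, and its fall of 0.23 on the log2 scale was lost without ControlA replicate 1 (−0.20), ApoE4 replicate 2 (−0.19) or ApoE4 replicate 3 (−0.22). With nApoE3 it rose by 0.18 from 206, 203 and 206 CPM to 233 and 232 CPM, which was 0.04 and no longer called with library totals. The difference between the fragments was −0.42 ± 0.0905 SE (adjusted p = 0.00365). Plk1, the polo-like kinase that acts from mitotic entry to cytokinesis, fell by 0.32 with nApoE4, from 144, 124 and 128 CPM to 111, 103 and 103 CPM. With nApoE3, Plk1 was at 181 and 176 CPM against 183, 183 and 178 CPM, and the test was not passed.

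Of the 5 spindle checkpoint genes, 3 fell with nApoE4, and 3 fell and 1 rose with nApoE3. Ttk, the kinase that starts checkpoint signaling, was at 35.6, 36.7 and 35.7 CPM in ControlA and 24, 21.8 and 24.3 CPM with nApoE4 (log2 fold change −0.62 ± 0.0634 SE, adjusted p = 2.46e-05). It was at 61.1, 62.0 and 59.4 CPM in ControlB and 46.1 and 48.2 CPM with nApoE3 (log2 fold change −0.37 ± 0.0344 SE, adjusted p = 9.22e-07). Bub1b, which binds Cdc20 in the checkpoint complex, also fell with both fragments. It went from 218, 199 and 224 CPM to 145, 136 and 135 CPM with nApoE4 (log2 fold change −0.62 ± 0.0673 SE, adjusted p = 3.76e-05), and from 310.1, 307 and 309 CPM to 217 and 215 CPM with nApoE3 (log2 fold change −0.52 ± 0.0212 SE, adjusted p = 3.99e-10). No treated library reached a control for Ttk or Bub1b. Bub1, the kinase that marks centromeres for the checkpoint and the passenger complex, was at 156, 151 and 150.2 CPM in ControlA and 115, 102 and 114 CPM with nApoE4, a fall of 0.46. With nApoE3, Bub1 was at 232 and 227 CPM against 216, 222 and 221 CPM (0.05, adjusted p = 0.0668), and the 2 responses differed by −0.52 ± 0.0743 SE (adjusted p = 0.000188). Bub3, the partner of Bub1 and Bub1b, rose with nApoE3 by 0.22 ± 0.0216 SE (adjusted p = 1.42e-06), from 229, 227 and 231 CPM to 271 and 267 CPM, while with nApoE4 its libraries overlapped the controls (171 to 195 against 178 to 197 CPM). Mad2l1 fell by 0.14 with nApoE3 and did not pass the test with nApoE4 (−0.15).

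The 3 partners of the anaphase-promoting complex were all higher with nApoE3, and 2 of them, Pttg1 and Ube2c, had the largest rises called with that fragment. Pttg1, securin, which keeps the sister chromatids together until it is destroyed, was at 24, 23.6 and 23.6 CPM in ControlB and 38.0 and 34.7 CPM with nApoE3 (log2 fold change 0.61 ± 0.0436 SE, adjusted p = 8.83e-08). Ube2c, the ubiquitin-conjugating enzyme of the complex (chromosome 2, 164769929 to 164772902), was at 119, 123 and 126 CPM in ControlB and 174 and 173 CPM with nApoE3 (log2 fold change 0.50 ± 0.0281 SE, adjusted p = 8.87e-09). Both ApoE3 libraries lay above every ControlB library for these 2 genes. With nApoE4, Ube2c was at 105, 93.4 and 101 CPM against 109, 107 and 95.8 CPM in ControlA, and the groups overlapped (adjusted p = 0.573). The difference between the fragments for Ube2c was −0.56 ± 0.0845 SE (adjusted p = 0.000313), the largest difference called in the list and kept in all 18 other fits. Pttg1 was also higher with nApoE4, at 26.4, 26.5 and 30.2 CPM against 21.9, 25.9 and 19.2 CPM (log2 fold change 0.32 ± 0.106 SE, adjusted p = 0.0285), a call lost without ControlA replicate 1 (0.30), ControlA replicate 3 (0.21), ApoE4 replicate 2 (0.34) or ApoE4 replicate 3 (0.25). Cdc20, the activator that the checkpoint holds back, fell by 0.21 with nApoE4 and rose by 0.08 with nApoE3. Both of these small changes depended on single libraries. The fall was lost without ControlA replicate 1 (−0.18), ApoE4 replicate 2 (−0.19) or ApoE4 replicate 3 (−0.19), and the rise without any ControlB replicate (0.07 to 0.08) or without ApoE3 replicate 1 (0.03), and it was −0.06 with library totals.

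**Figure D2:**
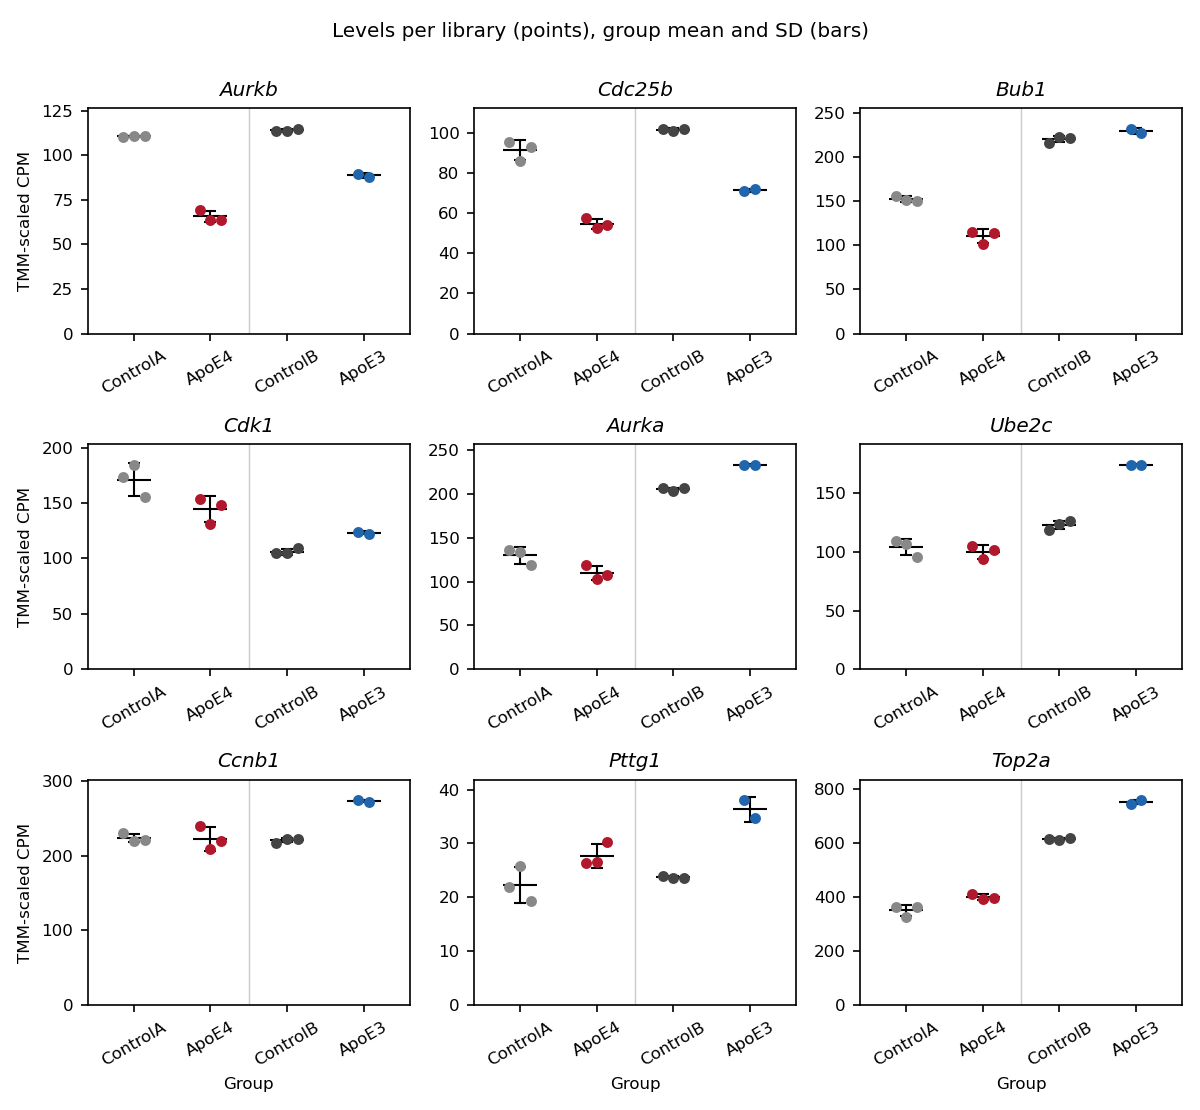
TMM-scaled CPM of 9 genes in each library (points), with the mean and SD of each group (bars), for ControlA, ApoE4, ControlB (n = 3 each) and ApoE3 (n = 2), on axes that start at 0. Aurkb and Cdc25b drop with both fragments, Bub1 drops with nApoE4, Cdk1 and Aurka move in opposite directions, and Ube2c and Ccnb1 rise with nApoE3. Pttg1 and Top2a rise in both experiments, with the groups close together for Pttg1 in the nApoE4 experiment.

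The chromosomal passenger complex was lower with nApoE4 in all of its 4 genes. Aurkb, its kinase (chromosome 11, 69045624 to 69051664), had the largest fall of the list with nApoE4. It was at 110.4, 111 and 111 CPM in ControlA and 69.5, 63.9 and 63.8 CPM with nApoE4 (log2 fold change −0.75 ± 0.0573 SE, adjusted p = 3.08e-06). It was at 113, 113 and 115 CPM in ControlB and 89.6 and 87.9 CPM with nApoE3 (log2 fold change −0.37 ± 0.0262 SE, adjusted p = 8.64e-08). The untreated groups were nearly level for Aurkb, and the fall was larger with nApoE4, with a difference of −0.39 ± 0.0639 SE (adjusted p = 0.000537). Birc5, survivin, fell by 0.45 and 0.29, and Incenp, the scaffold of the complex, by 0.32 and 0.23 with nApoE4 and nApoE3. Cdca8, borealin, fell by 0.30 with nApoE4, from 85.6, 90.7 and 78.6 CPM to 69.7, 67.8 and 68.9 CPM, and was at 123 and 122 CPM with nApoE3 against 126, 124 and 129 CPM, where the test was not passed. The 2 kinases of the Aurora family were thus called in opposite directions with nApoE3, though the rise of Aurka was 0.04 and not called with library totals.

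Among the 6 kinetochore and centromere genes, 3 fell and 1 rose with nApoE4, and 5 fell and 1 rose with nApoE3. Cenpa, the histone H3 variant that marks centromeres, was at 125, 124 and 111 CPM in ControlA and 82.1, 77.4 and 75 CPM with nApoE4 (log2 fold change −0.61 ± 0.0675 SE, adjusted p = 3.91e-05). With nApoE3 it fell by 0.23, from 136, 135 and 129.6 CPM to 114 and 114 CPM, and the responses differed by −0.39 ± 0.0800 SE (adjusted p = 0.00255). Cenpf, a large protein of the outer kinetochore, was at 241, 236 and 229 CPM in ControlB and 166 and 166 CPM with nApoE3 (log2 fold change −0.51 ± 0.0261 SE, adjusted p = 3.58e-09). Its fall of 0.36 with nApoE4 was lost without ControlA replicate 1 (−0.29) or ApoE4 replicate 3 (−0.34). In the Ndc80 complex, which grips microtubules, the 3 genes of the list fell with nApoE3. Nuf2 was at 98.7, 101 and 101 CPM in ControlB and 74.8 and 74 CPM with nApoE3 (log2 fold change −0.44 ± 0.0275 SE, adjusted p = 2.67e-08), and the values for Ndc80 and Spc25 were −0.26 and −0.11, the last of which was lost without ApoE3 replicate 1 (−0.08). Nuf2 was the 1 gene of the list with a call in the other direction between the fragments, 0.24 ± 0.0695 SE (adjusted p = 0.0196), and it was lost without ControlA replicate 1 (0.22), ApoE4 replicate 1 (0.22) or either ApoE3 replicate (0.25 and 0.23). Its own fall with nApoE4 (−0.18) was lost without any one ApoE4 replicate (−0.20, −0.15 and −0.20). Cenpe, the kinetochore motor that brings chromosomes to the spindle equator, went against the group. It was at 234, 231 and 232 CPM in ControlB and 259 and 264 CPM with nApoE3 (0.16), and at 135, 107 and 133 CPM in ControlA and 152, 146 and 145 CPM with nApoE4 (log2 fold change 0.24 ± 0.0899 SE, adjusted p = 0.043). The rise of Cenpe with nApoE4 was lost without any one ApoE4 replicate (0.22, 0.24 and 0.26) and with library totals (0.15), and was 0.13 without ControlA replicate 2. Its rise with nApoE3 was 0.03 and not called with library totals.

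Of the 6 spindle motors and microtubule proteins, 1 fell with nApoE4, and 1 rose and 2 fell with nApoE3. Kif2c, which takes microtubules apart at the centromere, fell by 0.18 with nApoE4 and 0.20 with nApoE3, and the first of these was lost without ControlA replicate 1 (−0.15), ControlA replicate 3 (−0.19), ApoE4 replicate 2 (−0.16) or ApoE4 replicate 3 (−0.16). Tpx2, the activator of Aurka and the highest gene of the list per kb of exon in the ApoE3 group, was at 240.2, 232 and 235 CPM in ControlA and 252, 229 and 239 CPM with nApoE4. It was at 454, 458 and 449 CPM in ControlB and 486 and 481 CPM with nApoE3, a rise of 0.09 that was −0.05 with library totals. Nusap1, which bundles spindle microtubules, fell by 0.11 with nApoE3, a call lost without ApoE3 replicate 1 (−0.08). Hmmr, a microtubule-binding protein of the spindle, and Kif4, a chromokinesin, passed the test with neither fragment. Hmmr was at 96.4 to 111 CPM with nApoE4 against 97.2 to 114 CPM in ControlA.

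Of the 7 midzone and cytokinesis genes, 5 fell with nApoE4, and 3 fell and 1 rose with nApoE3. Kif20b, a kinesin of the late spindle, had the largest fall of them. It was at 131, 108 and 129 CPM in ControlA and 85.0, 75.5 and 80.7 CPM with nApoE4 (log2 fold change −0.60 ± 0.0856 SE, adjusted p = 0.000224), and at 227, 234 and 223 CPM in ControlB and 151 and 157 CPM with nApoE3 (log2 fold change −0.57 ± 0.0276 SE, adjusted p = 2e-09). The difference between the 2 falls of Kif20b was −0.04 ± 0.104 SE and did not pass the test (adjusted p = 0.81). Kif20a and Kif23, motors that carry the passenger complex and centralspindlin to the midzone, fell by 0.31 and 0.23 with nApoE4, and with nApoE3 had values of −0.05 and −0.01 that did not pass the test. The fall of Kif23 was lost without ControlA replicate 1 (−0.20) or ApoE4 replicate 3 (−0.22). Reads of Kif20a are uncertain, since 57.0% of its span overlaps Cdc23. Ect2, which activates RhoA for the cleavage furrow, fell by 0.32 and 0.24. Racgap1, a subunit of centralspindlin, fell by 0.19 and 0.25. The first of these was lost without ControlA replicate 1 (−0.18), ApoE4 replicate 2 (−0.18) or ApoE4 replicate 3 (−0.16). Anln, anillin, the scaffold of the contractile ring, rose by 0.10 with nApoE3, from 168, 176 and 173 CPM to 185 and 186 CPM, and was −0.03 with library totals.

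Top2a, the topoisomerase that untangles sister chromatids, and Mki67, the surfactant of mitotic chromosomes known as the proliferation marker Ki-67, are the most abundant transcripts of the list in CPM. Top2a was at 613, 611 and 617 CPM in ControlB and 745 and 758 CPM with nApoE3 (log2 fold change 0.29 ± 0.0188 SE, adjusted p = 3.88e-08). It was at 362, 327 and 363 CPM in ControlA and 411, 391 and 396 CPM with nApoE4 (log2 fold change 0.19 ± 0.0665 SE, adjusted p = 0.0314), a call lost without ControlA replicate 1 (0.21) or any one ApoE4 replicate (0.17, 0.20 and 0.20) and with library totals (0.10). Without ControlA replicate 2, the value for Top2a was 0.14. Mki67 fell by 0.23 with nApoE3, from 1009, 1038 and 1012 CPM to 858 and 891 CPM, a call lost in the fit of all 11 libraries (−0.22). With nApoE4, Mki67 was at 771, 807 and 755 CPM, against 792, 558 and 798 CPM in ControlA, where replicate 2 lay far below the others (0.12, adjusted p = 0.431). Without that library, the value for Mki67 was −0.03. Top2a and Mki67 were thus called in opposite directions with nApoE3.

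**Figure D3:**
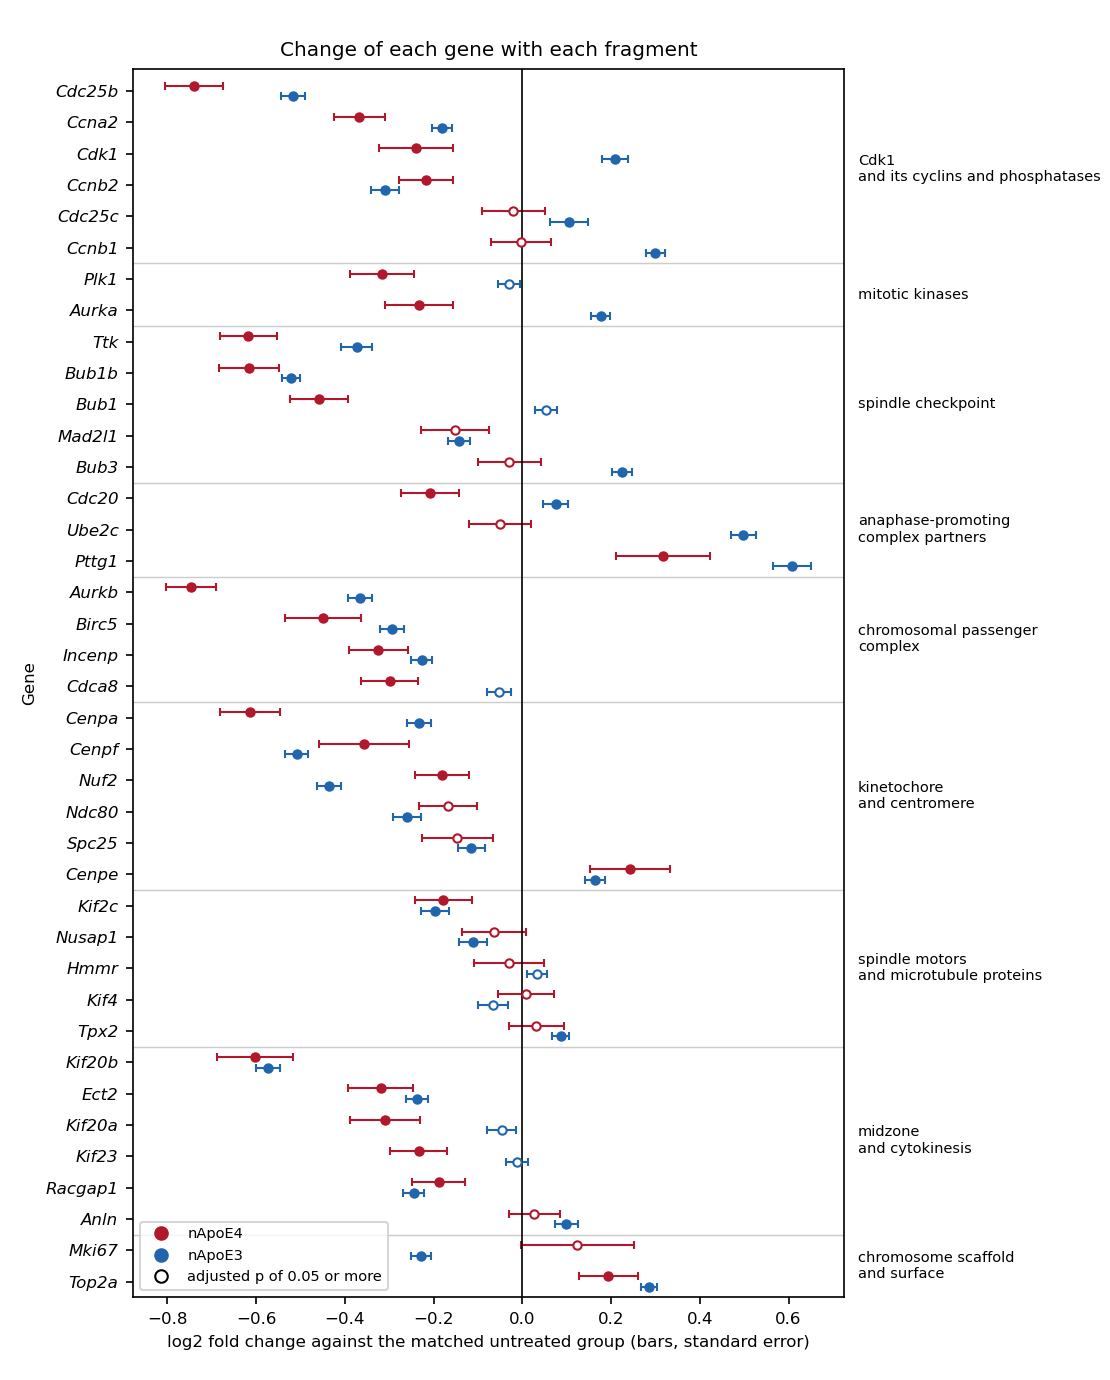
Log2 fold change of 39 genes against the matched untreated group (points) with the standard error (bars), in red for nApoE4 and blue for nApoE3, with open points where the adjusted p was 0.05 or more. Most red points lie to the left of 0, and 29 of the 39 red points lie to the left of the blue point of the same gene.

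Set side by side, 15 genes fell with both fragments, 3 rose with both (Pttg1, Cenpe and Top2a), and 3 fell with nApoE4 and rose with nApoE3 (Cdk1, Aurka and Cdc20). Among the 13750 genes tested in both experiments, 22.3% fell with both, 21.3% rose with both and 1.85% fell with nApoE4 and rose with nApoE3. A further 5 genes fell with nApoE4 and were not called with nApoE3 (Plk1, Bub1, Cdca8, Kif20a and Kif23), against 4.87% of all genes. With library totals, these 5 were called lower with nApoE3 too. Their values were then −0.16 for Plk1, −0.08 for Bub1, −0.18 for Cdca8, −0.18 for Kif20a and −0.14 for Kif23. The 6 that rose with nApoE3 and were not called with nApoE4 (Ccnb1, Cdc25c, Bub3, Ube2c, Tpx2 and Anln) stand against 11% of all genes. The 2 experiments share no samples, and the log2 fold changes of the 39 genes had a Spearman correlation of 0.66 and a Pearson correlation of 0.71 across genes, which are not independent replicates.

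The difference between the fragments was tested for each gene over the 11 libraries. It was negative, with the lower value on the side of nApoE4, for 16 of the 42 genes and positive for 1, while 13.9% of 15287 genes were negative and 14.4% positive. Ube2c, Bub1, Cdk1, Aurka, Cenpa and Aurkb had the largest differences, and these 6 kept the call in all 18 other fits. The other 10 negative calls were lost in at least 1 fit. The number of negative calls was 8 without ApoE4 replicate 2 or ApoE3 replicate 1, 9 without ApoE3 replicate 2 and 10 without ControlB replicate 2 or 3. That of positive calls was 2 without ControlA replicate 2 or 3 and 0 without ControlA replicate 1, ApoE4 replicate 1 or either ApoE3 replicate. Without ControlA replicate 2, the counts were 19 negative and 2 positive. The median difference over the list was −0.11, against 0.00 over all genes.

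The untreated groups of the 2 experiments did not start from the same level. In ControlA, 29 of the 42 genes were lower and 2 higher than in ControlB, while 34.4% of 14249 genes were lower and 34.9% higher. The median of the list was −0.46 (ControlA minus ControlB, log2), against 0.01 over all genes, and the libraries of the groups did not overlap for 35 of the 42 genes (74.1% of all genes). Without ControlA replicate 2, 32 genes were lower and 3 higher, with a median of −0.39. Hmmr was at 114, 97.2 and 110.0 CPM in ControlA and 204, 209.6 and 206 CPM in ControlB (−0.93 ± 0.0654 SE, adjusted p = 7.17e-06). Tpx2 had a difference of −0.93 ± 0.0422 SE (adjusted p = 1.07e-06), followed by Nuf2 (−0.88), Kif20b (−0.88), Cenpe (−0.88) and Ndc80 (−0.82). These 6 genes were at 51.1 to 240.2 CPM in ControlA and at 94.5 to 458 CPM in ControlB. Cdk1 stood against the rest, with 0.70 ± 0.0675 SE (adjusted p = 3.68e-05), at 155 to 185 CPM in ControlA and 105 to 109 CPM in ControlB. Ccnb1, Ccnb2, Aurkb, Kif23 and Nusap1 differed by at most 0.04 in size between the untreated groups and did not pass the test. The other gene called higher in ControlA was Kif11, one of the 3 genes near the floor of detection, and its call was lost without ControlA replicate 3 (0.67), ControlB replicate 2 (0.82) or ControlB replicate 3 (0.64). Across 39 genes, the difference had a Spearman correlation of −0.36 with exon length. For the log2 fold changes of the same genes, the correlation with length was 0.25 with nApoE4 and −0.08 with nApoE3. What part length had in these values was not tested.

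**Figure D4:**
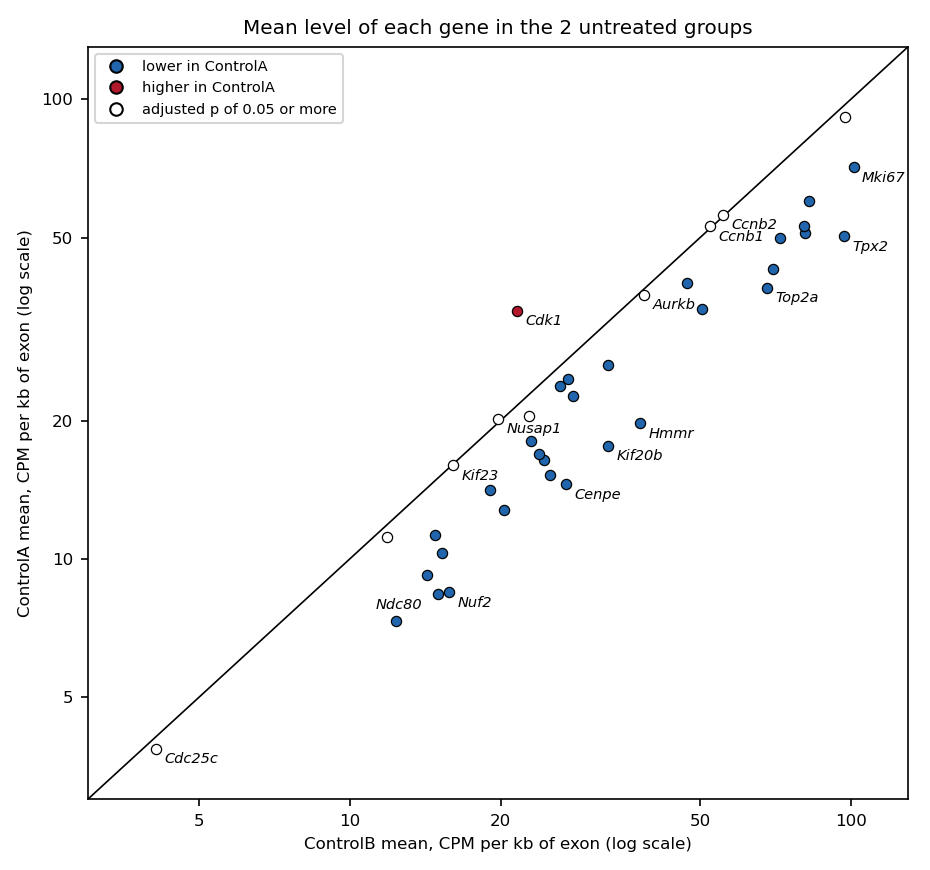
Mean level in ControlA against ControlB for 39 genes, in CPM per kb of exon on log axes, with the line of equal levels. Blue points were lower in ControlA, the red point (Cdk1) was higher, and open points did not pass the test, so that most genes lie below the line while Ccnb1, Ccnb2, Nusap1, Kif23 and Aurkb lie on or near it.

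Other genes of mitosis, 110 in a list that leaves out the 42, were also called lower more often than higher with both fragments. Of 105 tested with nApoE4, 15 were higher and 44 lower (14.3% and 41.9%, against 28.6% and 28.6% of all genes, median −0.16). Of 106 tested with nApoE3, 16 were higher and 73 lower (15.1% and 68.9%, against 33.1% and 34.6% of all genes, median −0.19). The largest falls called with nApoE4 were those of Haus8 (−1.08) and Haus4 (−1.04), of the augmin complex that branches spindle microtubules, and Cdca5 (−1.0), sororin, which protects cohesion. With nApoE3, the lowest value in this list was −3.46, and 4 falls past 2-fold were called, against 2 with nApoE4. The difference between the fragments was negative for 9.52% of the genes tested in this list and positive for 16.2%, near the 13.9% and 14.4% of all genes. In genes of S phase, the medians were further below 0 with both fragments than in the 42 genes of mitosis, a difference that was not tested. Of 44 S phase genes, 41 were lower with nApoE4 (93.2%, against 28.6% of all genes, median −0.71). With nApoE3, 43 were lower (97.7%, against 34.6% of all genes, median −0.74).

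Regulators of late cell cycle promoters were called lower more often than higher with both fragments. Of 25 in the list, 23 were tested. With nApoE4, 2 were higher and 13 lower (8.7% and 56.5%, against 28.6% and 28.6% of all genes). With nApoE3, 5 were higher and 15 lower (21.7% and 65.2%, against 33.1% and 34.6% of all genes). Over the 23, log2 fold changes ran from −1.37 to 1.97 with nApoE4 and from −1.89 to 1.99 with nApoE3. The regulators described next are only a part of the list, and the lowest value with each fragment belongs to a gene not named here. Foxm1, which activates G2 genes, fell by 0.46 and 0.51 with nApoE4 and nApoE3. Mybl2, the B-Myb that joins MuvB, went from 201 ± 8.86 to 90.7 ± 4.08 CPM with nApoE4 (SD, n = 3 each; log2 fold change −1.14 ± 0.0637 SE, adjusted p = 3.14e-07) and fell by 0.73 with nApoE3. E2f1, which drives entry into S phase, fell by 1.35 and 0.89. Cdkn1a, p21, the inhibitor through which p53 stops the cycle, rose from 51.3 ± 3.07 to 200.4 ± 12.6 CPM with nApoE4 and from 23.5 ± 1.23 (SD, n = 3) to 93.6 ± 4.79 CPM (SD, n = 2) with nApoE3. These are log2 fold changes of 1.97 ± 0.0723 SE (adjusted p = 1.83e-08) and 1.99 ± 0.0445 SE (adjusted p = 1.5e-12), with a difference of −0.03 ± 0.0932 SE between the fragments. Trp53, p53, rose by 0.39 and 0.51. Whether these regulators had a part in the changes of the 42 genes was not tested.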

How the data were processed

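RNA of 11 BV2 libraries was sequenced as single reads of 75 bases. The authors trimmed reads with Trim Galore 0.5.0, checked them with FastQC 0.11.8, aligned them to mouse GRCm38.p6 with HISAT2 2.1.0 and counted them per gene with HTSeq 0.11.0, and deposited raw read counts per library. The strand setting and the handling of overlapping genes are not given in the sources used here. Rows that name no gene, such as reads placed in more than 1 location (11.7 to 13.2% of reads) or ambiguous between genes (3.24 to 3.56%), stayed out of library sizes and tests. Depth was 39732710 to 69768666 counts per library.

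From these counts, genes with low counts were dropped with filterByExpr, libraries were scaled by TMM, and each gene was tested with the quasi-likelihood F test of edgeR 4.0.16 in R 4.3.3 (2-sided), with Benjamini-Hochberg adjustment over all genes tested and a threshold of 0.05. ApoE4 was compared with ControlA and ApoE3 with ControlB, each in its own fit. The difference between the fragments was an interaction term over all 11 libraries, and ControlA was compared with ControlB. Standard errors are approximate, from the log2 fold change and its F value. Levels per kb used the exon union of GENCODE vM21. The coordinates of the genes and the overlaps of their spans came from RefSeq. Groups came from the labels, which do not state separate cultures. The paper describes its transcriptome data as averages of 3 independent measurements or trials, though the ApoE3 group has 2 libraries here. Whether these were separate cultures is not stated, so p-values measure only the spread between these samples, which may be technical. Replicate numbers were not used to pair the samples. The residuals of same-numbered treated and untreated libraries had correlations of −0.338 to −0.00203. With 2 or 3 libraries per group, these cannot show whether samples were paired. Alternatives were DESeq2 1.42.0, limma 3.58.1 (voom), library totals, other count filters, a shared fit, a replicate block, a fold threshold and leaving out each library. The scripts were tested on simulated data.

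The 42 genes and the comparison lists were chosen with earlier results of these data known. Genes named with full statistics are, per comparison, up to 6 of the largest rises and falls called, plus genes set against each other. Other genes are named from the list of regulators and, from each other list, up to the 3 largest changes called.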

Additional observations from a re-analysis of the deposited data

Results flagged for a closer look

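For 17 genes the change with nApoE4 differed from the change with nApoE3 by the interaction test of edgeR (nApoE4 minus nApoE3, log2). The differences were −0.56 for Ube2c, −0.52 for Bub1, −0.46 for Cdk1, −0.42 for Aurka, −0.39 for Cenpa and −0.39 for Aurkb, followed by −0.31 for Ccnb1, −0.30 for Plk1, −0.30 for Cdc20, −0.27 for Kif20a, −0.27 for Bub3, −0.26 for Cdca8, −0.26 for Ttk, −0.23 for Cdc25b, −0.23 for Kif23 and −0.20 for Ccna2. Nuf2 had the 1 positive value, 0.24. The experiment, the depth and the fragment cannot be told apart in these values. No group held 4 or more libraries, so Dixon's test for a library far from its group was not run.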

How the results depend on the processing

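With nApoE4, the 3 rises became 0 with library totals, 0 with the replicate block and 0 to 3 when 1 library was left out, and the 23 falls 15 to 23. The median of the list was −0.29 with library totals. With nApoE3, the 12 rises became 6 with library totals and 7 in the fit of all 11 libraries, and the median was −0.24 with library totals and −0.12 to −0.080 without 1 library. With library totals, Cdc25c (−0.027), Bub1 (−0.078), Cdc20 (−0.056), Tpx2 (−0.046), Hmmr (−0.099) and Anln (−0.033) turned negative with nApoE3. For the difference between the fragments, the 1 positive call became 3 with voom, 2 with a filter of at least 1 count, 0 with the block and 0 to 2 without 1 library, and the 16 negative calls became 9 with that filter, 6 with the block and 8 to 19 without 1 library. Between the untreated groups, the 2 genes higher in ControlA became 4 with voom and 1 to 3 without 1 library, and the median was −0.37 with voom and −0.48 to −0.39 without 1 library. A required change of more than 2-fold left 0 calls in each of these comparisons. Apart from library totals, the cause of these shifts was not tested.

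The replicate numbers share no stated source, and the block gave 0 higher and 17 lower with nApoE4 and 11 and 20 with nApoE3. Leaving out an ApoE3 library leaves 1, which is assumed to vary like the others. Nek2, Kif11 and Prc1 had 7 to 73 counts per library, which limits their precision.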
